A study of Mus musculus with 6 samples.

Results

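The GABA-A receptor subunits described here are 7 genes, Gabra2, Gabra3, Gabra4, Gabra5, Gabrb1, Gabrb2 and Gabrd, taken as the rows of the deposited mRNA table that carry one of these symbols. They are 7 of the 12559 genes in that table and hold 18 of its 32870 mRNA transcripts. RNA was sequenced from the prefrontal cortex (PFC) of 3 control mice and 3 mice put through repeated social defeat (RSD). All 6 were male C57BL/6 mice of 6 to 8 weeks, and the labels name no transgene and no drug. On 6 nights an aggressive CD-1 mouse was placed for 2 h into the home cage of the RSD mice. Control mice stayed undisturbed in another cage and room, with 3 mice to a cage, so that RSD cannot be told apart from cage or room. The PFC was taken right after the elevated plus maze, a test of anxiety-like behaviour, so every value follows both the defeat and the maze, and RSD mice entered sequencing on the condition that they showed such behaviour. Each library came from a separate mouse. The brain was cut at the back of the olfactory tubercle, so the block could hold regions other than cortex. The tissue is bulk PFC, in which fewer cells of a type and less RNA per cell cannot be told apart.

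GABA-A receptors are chloride channels opened by GABA, the main inhibitory transmitter of the adult cortex. Each receptor is a ring of 5 subunits, usually alpha and beta subunits joined by a gamma or a delta subunit, and the alpha and beta subunits form the GABA binding site. Alpha subunits also decide much of the drug response, since benzodiazepines bind between an alpha and a gamma subunit. Gabra2 and Gabra3 encode benzodiazepine-sensitive alpha subunits, and mouse genetics ties the Gabra2 product to the calming effect of these drugs. Gabra4 encodes an alpha subunit that pairs with the delta subunit, product of Gabrd, in receptors outside synapses that carry a steady inhibitory current and respond to neurosteroids. Gabra5 encodes an alpha subunit that is also found largely outside synapses. Gabrb1 and Gabrb2 encode beta subunits.

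The start sites of 4 members are shown because the results return to them: Gabra3 and Gabrb2 are the members whose mRNA levels did not overlap between the groups, and Gabra4 and Gabrb1 lie head to head. The sequences are RefSeq windows of GRCm38.p6, 300 bases each, from 250 bases before the annotated start site, printed 5′ to 3′ on the strand of the gene. Capitals mark matches, on either strand, to 8 short motifs: the cyclic AMP response element TGACGTCA and its shorter core TGACG, which lies inside it, the AP-1 site TGANTCA, the Egr site GCGTGGGCG, the GC box GGGCGG, the CAAT box CCAAT, the TATA box TATAAA and the glucocorticoid receptor core TGTTCT. A match is a match of letters, not a bound site.
Gabra3, chrX:72656870-72657169, minus strand: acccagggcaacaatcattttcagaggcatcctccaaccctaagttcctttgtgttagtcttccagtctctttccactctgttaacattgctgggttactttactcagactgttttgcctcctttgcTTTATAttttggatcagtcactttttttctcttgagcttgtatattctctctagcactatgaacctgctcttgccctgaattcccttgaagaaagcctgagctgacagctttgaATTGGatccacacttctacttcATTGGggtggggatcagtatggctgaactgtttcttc
Gabrb2, chr11:42420190-42420489, plus strand: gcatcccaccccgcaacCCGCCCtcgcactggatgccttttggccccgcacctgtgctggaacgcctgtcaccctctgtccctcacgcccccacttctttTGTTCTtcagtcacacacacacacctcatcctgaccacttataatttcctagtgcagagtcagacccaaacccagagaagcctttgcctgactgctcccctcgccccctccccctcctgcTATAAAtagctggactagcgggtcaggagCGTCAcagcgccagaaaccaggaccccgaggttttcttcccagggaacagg
Gabra4, chr5:71658259-71658558, minus strand: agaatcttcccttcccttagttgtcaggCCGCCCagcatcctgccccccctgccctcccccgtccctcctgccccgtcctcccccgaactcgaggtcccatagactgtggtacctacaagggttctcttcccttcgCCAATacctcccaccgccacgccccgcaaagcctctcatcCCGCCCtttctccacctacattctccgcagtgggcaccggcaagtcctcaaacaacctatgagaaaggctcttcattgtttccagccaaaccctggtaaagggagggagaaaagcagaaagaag
Gabrb1, chr5:71657671-71657970, plus strand: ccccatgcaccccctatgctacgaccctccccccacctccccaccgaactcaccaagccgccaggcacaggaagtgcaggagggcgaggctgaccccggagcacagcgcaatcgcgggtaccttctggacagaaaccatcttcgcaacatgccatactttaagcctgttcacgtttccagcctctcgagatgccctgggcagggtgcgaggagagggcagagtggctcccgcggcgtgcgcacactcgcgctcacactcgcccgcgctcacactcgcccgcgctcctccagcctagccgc

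The table of windows held 10 windows for 6 of the 7 members, and Gabrd had no entry. Where a member shown above had several windows, the most upstream was printed. The Gabra3 window held 0 CG dinucleotides at 43.0% GC, against medians of 7 CG dinucleotides and 52.7% GC over 32851 windows of all genes. Its capitals are 2 CAAT boxes, read as ATTGG, and a TATA box, read as TTTATA. The printed Gabrb2 window held a TATA box 30 bases before the start site and a glucocorticoid receptor core. It also held a GC box and a core of the cyclic AMP response element, read as CGTCA. Windows with these letters made up 13.6% of all windows for the TATA box, 19.0% for the glucocorticoid receptor core, 35.7% for the GC box and 20.8% for the core of the cyclic AMP response element. The CAAT box was in 37.4% of all windows. The Gabrb2 windows further downstream held no TATA box, GC box or core of the cyclic AMP response element. None of the 10 windows of the members held the whole cyclic AMP response element, the AP-1 site or the Egr site, which were in 1.79%, 7.81% and 0.612% of all windows. The Gabra4 window held 2 GC boxes, a CAAT box and 12 CG dinucleotides, and the Gabrb1 window held 25 CG dinucleotides and none of the 8 motifs. The assembled Gabra4 and Gabrb1 loci overlapped by 259 bases on opposite strands. The libraries kept the strand, but whether reads were assigned by strand is not given in the sources used here. The deposited starts did not always sit on these windows. Gabra4 began exactly at its annotated site, the nearest Gabra3 transcript began 673 bases downstream of its site, and the main Gabrb2 transcript began at position -683 relative to its site. The most abundant Gabrb1 transcript began at a downstream site, position 71699932, which is the start site of another Gabrb1 window. That window, not printed, held 9 CG dinucleotides and none of the 8 motifs.

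The values are FPKM, fragment counts scaled to transcript length and library size, so levels can be set side by side between genes. They carry no read counts. Relative depth was estimated from the most common ratio of low values between control replicate 1 and each other library, over 137 to 193 values. It was 0.857 to 0.967 times that of control replicate 1 in the other 5 libraries. By this rough estimate depth differed little. Across genes, which are not independent replicates, libraries of the same group correlated at 0.835 to 0.913 and libraries of different groups at 0.825 to 0.891. Control replicate 1 stood apart from its group, at 0.835 with control replicate 2 and 0.859 with control replicate 3 but 0.891 with RSD replicate 2. Markers of excitatory neurons, interneurons and astrocytes were all in the table. Summed markers of excitatory neurons ran from 47.3 to 368 FPKM in control mice and from 362 to 402 FPKM in RSD mice, since Slc17a7, a vesicular glutamate transporter, was listed at or near 0 in control replicates 2 and 3. Such a value can be a failed estimate. Summed oligodendrocyte markers, 4 of 4 in the table, were 118 to 189 FPKM in control mice and 205 to 253 FPKM in RSD mice and did not overlap, and their part in the results below was not tested. Interneuron markers overlapped, at 103 to 163 FPKM and 122 to 186 FPKM, as did striatal markers, 3 of 5 in the table, at 15.8 to 37.1 FPKM and 30.1 to 33.7 FPKM.

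No subunit gene passed the test. Gabrb2, a beta subunit, had the highest level and was 10.1% higher on average in RSD mice, with every RSD mouse above every control mouse. Gabra3, an alpha subunit, had the lowest level of RNA listed as mRNA. It was 26.1% lower on average in RSD mice, with every RSD mouse below every control mouse. Without control replicate 1 the log2 fold change was 0.11 for Gabrb2 and -0.40 for Gabra3, against 0.14 and -0.43 with all mice. The other 5 members had group means within 6% of each other and groups that overlapped. All 7 passed the filter on low values, at least 0.5 FPKM in at least 3 of 6 mice. With limma on log2(FPKM + 0.1), 0 of the 7 had an adjusted p under 0.05, a call made for 0.0733% of the 12277 genes tested, and 1 of the 7 had an unadjusted p under 0.05, a call made for 8.94% of all genes. None reached the threshold of the paper, which asks for a log2 difference of 1 or more either way and an unadjusted p of at most 0.05, and which 2.42% of all genes reached. The 1 member with groups apart upwards stands beside 9.39% of all genes, and the 1 member with groups apart downwards beside 6.66%. In size, the median log2 fold change was 0.03 over the 7 members and 0.22 over all genes.

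**Figure D1:**
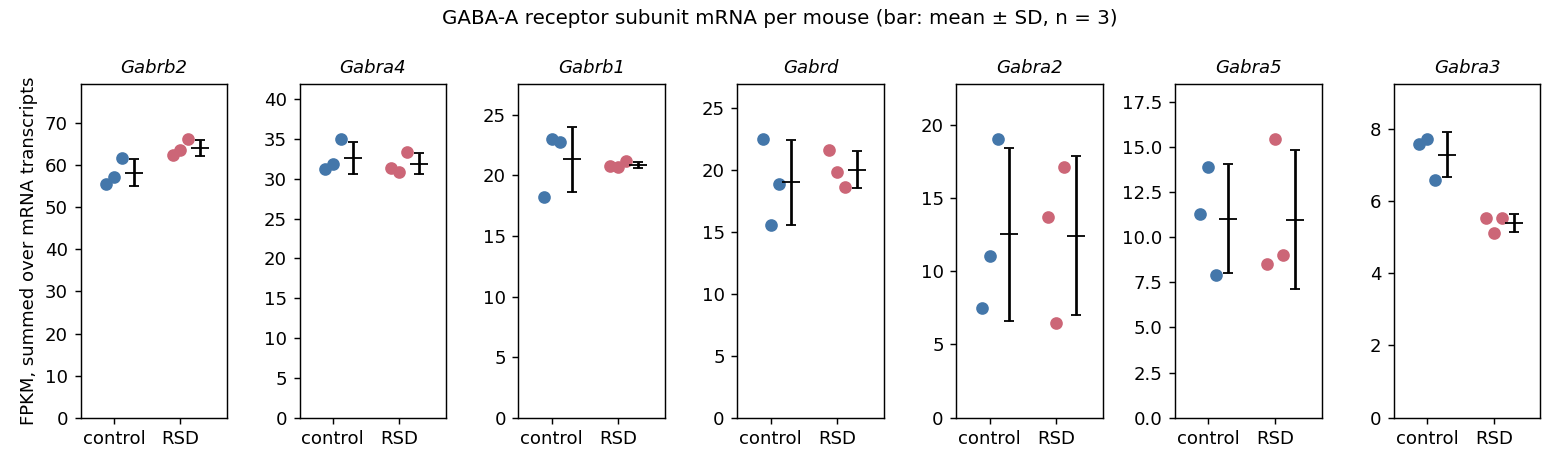
FPKM of the 7 subunit genes, summed over mRNA transcripts, in each of 3 control (blue) and 3 RSD (red) mice, each panel with its own axis from 0; bars are mean ± SD. The Gabrb2 points of RSD mice, 62.5 to 66.2 FPKM, lie above the control points, the Gabra3 points of RSD mice, 5.10 to 5.54 FPKM, lie below them, and the other 5 panels overlap.

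The order of the mRNA levels was partly fixed across mice. Gabrb2 was above Gabra4 in 6 of 6 mice, by 1.90 times on average, and Gabra4 was above Gabrb1 in 6 of 6 mice, by 1.53 times, in both cases with ranges that did not meet. At the bottom, Gabra5 was above Gabra3 in 6 of 6 mice, by 1.73 times. Between them the neighbours did not differ beyond their spread. Gabrb1 was above Gabrd in 4 of 6 mice, Gabrd above Gabra2 in 5 and Gabra2 above Gabra5 in 3. The low place of Gabra3 holds only for transcripts listed as mRNA. With the transcript listed as lncRNA added, its locus averaged 47.8 FPKM over the 6 mice. This lay between the locus sums of Gabrb2, 61.2 FPKM, and Gabra4, 32.3 FPKM.

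Among the alpha subunits, Gabra3 showed the clearest separation. Gabra3 lies on chromosome X from 72432681 to 72656848 on the minus strand and was measured at 7.58, 7.71 and 6.59 FPKM in controls, against 5.53, 5.10 and 5.54 FPKM after RSD. The highest RSD value was below the lowest control value, and the spread was small in both groups. The means were 7.29 ± 0.615 FPKM (SD, n = 3) and 5.39 ± 0.250 FPKM (SD, n = 3). The log2 fold change was -0.43 (standard error 0.121), with an unadjusted p of 0.0131 and an adjusted p of 0.532 from limma. Gabra3 was the 1 member with an unadjusted p under 0.05. The 95% interval of its fold ran from 0.605 to 0.915. This interval and those of the other members are not adjusted for the number of genes tested. The exact two-sided permutation test gave p = 0.1, the smallest value that 3 against 3 mice allow. When the transcript listed as lncRNA in the same locus was added, the log2 fold change was 0.01, as described with that locus below.

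Gabra2 and Gabra5 were the variable members. Gabra2, on chromosome 5 from 70957597 to 71095849 on the minus strand, was measured at 7.49, 11.1 and 19.0 FPKM in controls, against 13.7, 6.46 and 17.1 FPKM after RSD. The highest mouse was 2.94 times the lowest, each group held both high and low mice, and 84.8% of all genes had a smaller spread within groups. The means of Gabra2 were 12.5 ± 5.90 FPKM in control mice and 12.4 ± 5.45 FPKM in RSD mice (SD, n = 3 each), with an adjusted p of 0.993 from limma. The 95% interval of its fold ran from 0.435 to 2.24. With 3 mice a group, a change of this benzodiazepine-site subunit within that range was thus not excluded. Gabra5, on chromosome 7 from 57407672 to 57590782 on the minus strand, was measured at 11.3, 13.9 and 7.92 FPKM in controls, against 8.50, 15.4 and 8.99 FPKM after RSD. Its 3 lowest values came from the mice in which one Gabra5 transcript was listed at 0, given below, and the part of those zeros in the spread was not tested. The Gabra5 means were 11.03 ± 2.999 and 10.97 ± 3.86 FPKM (SD, n = 3 each), with a 95% interval of the fold from 0.579 to 1.67 and an adjusted p of 0.986 from limma. Leaving out 1 mouse moved the log2 fold change from -0.33 to 0.39 for Gabra2 and from -0.30 to 0.16 for Gabra5.

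Gabra4, the alpha partner of the delta subunit, was steady. It lies on chromosome 5 from 71569749 to 71658308 on the minus strand and was measured at 31.2, 31.8 and 34.96 FPKM in controls, against 31.4, 30.9 and 33.4 FPKM after RSD. Each group had 2 mice between 30.9 and 31.8 FPKM and 1 mouse above them. The means were 32.7 ± 2.01 and 31.9 ± 1.30 FPKM (SD, n = 3 each), with an adjusted p of 0.923 from limma and a 95% interval of the fold from 0.828 to 1.15.

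The beta subunits differed in their pattern. Gabrb2, on chromosome 11 from 42419757 to 42629028 on the plus strand, was measured at 55.6, 57.3 and 61.7 FPKM in controls, against 62.5, 63.7 and 66.2 FPKM after RSD. The lowest RSD mouse was just above the highest control mouse. The means of Gabrb2 were 58.2 ± 3.15 and 64.1 ± 1.86 FPKM (SD, n = 3 each), which gave a log2 difference of 0.14 (standard error 0.0934) with an adjusted p of 0.652 from limma and a 95% interval of the fold from 0.940 to 1.29. The exact two-sided permutation p was 0.1, again the smallest possible. The Gabrb2 value depended on scaling, with a log2 fold change of 0.0608 after median scaling and 0.0466 after quantile normalization. Gabrb1, on chromosome 5 from 71658050 to 72149037 on the plus strand, was measured at 18.2, 23.0 and 22.8 FPKM in controls, against 20.8, 20.7 and 21.2 FPKM after RSD. All RSD values of Gabrb1 lay inside the control range. Its means were 21.3 ± 2.69 and 20.9 ± 0.247 FPKM (SD, n = 3 each), with a 95% interval of the fold from 0.797 to 1.22 and an adjusted p of 0.965 from limma.

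Gabrd, the delta subunit, lies on chromosome 4 from 155384980 to 155398112 on the minus strand. It was measured at 22.4, 15.6 and 18.9 FPKM in controls, against 21.6, 19.8 and 18.6 FPKM after RSD, so the RSD mice again lay within the control range. The means were 19.0 ± 3.44 and 19.99 ± 1.498 FPKM (SD, n = 3 each), with an adjusted p of 0.861 from limma and a 95% interval of the fold from 0.810 to 1.40.

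**Figure D2:**
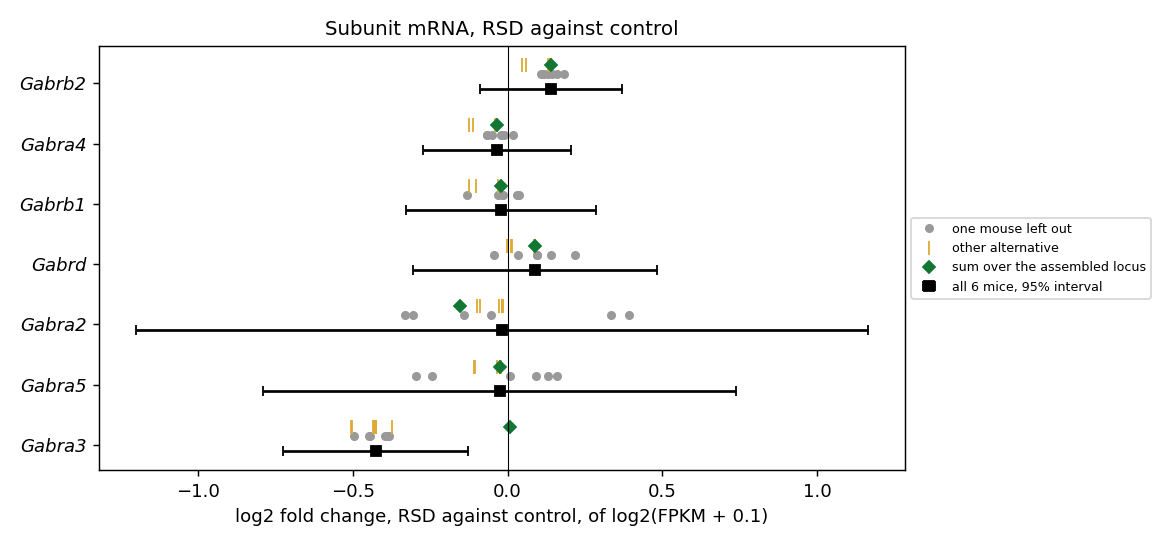
The log2 fold change of each subunit gene, RSD against control, on the log2(FPKM + 0.1) scale, with the 95% interval from limma over 6 mice (black), the value without 1 mouse (grey), under other processing (yellow) and for the sum over the assembled locus (green). The Gabra3 value of -0.43 becomes 0.01 for the locus sum, and the Gabra2 interval, from a fold of 0.435 to 2.24, is the widest of the 7.

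The deposited table divides each gene among transcripts, and most members had one leading transcript. The most abundant transcript held 94.7% of Gabrb1, 87.0% of Gabra3, 86.6% of Gabrd, 86.2% of Gabra4 and 85.2% of Gabrb2, but 67.1% of Gabra5 and 61.4% of Gabra2, on average over the 6 mice. All 18 transcripts passed the filter, and with limma 0 of the 18 had an adjusted p under 0.05, against 0.163% of the 29471 transcripts tested. None had an unadjusted p under 0.05, against 6.78% of all, and none met the threshold of the paper, against 4.09% of all. In 1 of the 18 the RSD mice all lay above the control mice, against 7.22% of all transcripts, and in 3 every RSD mouse lay below, against 6.17%. The count at the threshold of the paper was 1 without control replicate 1 or control replicate 3, and 2 without RSD replicate 2.

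The transcript that separated upwards was the main Gabrb2 form. ENSMUST00000007797 was measured at 46.7, 48.0 and 50.3 FPKM in controls, against 53.7, 56.7 and 57.7 FPKM after RSD, a log2 fold change of 0.21 with an adjusted p of 0.741 from limma. The next Gabrb2 form went the other way. ENSMUST00000143626 was measured at 7.02, 6.79 and 8.07 FPKM in controls, against 6.78, 4.55 and 6.49 FPKM after RSD. Every RSD mouse was thus above the controls for the main form and below them for this one. The second separation was narrow, with 6.78 against 6.79 FPKM for the closest mice and an adjusted p of 0.796 from limma. The other transcripts with every RSD mouse below the controls were the main Gabra3 form and a minor Gabra4 form. ENSMUST00000055966 of Gabra3 was measured at 6.00, 6.91 and 5.52 FPKM in controls, against 5.27, 4.23 and 5.06 FPKM after RSD, a log2 fold change of -0.33 with an adjusted p of 0.757 from limma. The minor Gabra3 form ENSMUST00000137517 was measured at 1.57, 0.802 and 1.07 FPKM in controls, against 0.259, 0.877 and 0.486 FPKM after RSD. Its groups overlapped through RSD replicate 2. The minor Gabra4 form ENSMUST00000198138 was measured at 0.598, 0.716 and 0.624 FPKM in controls, against 0.590, 0.335 and 0 FPKM after RSD. These levels are near the filter of 0.5 FPKM, and the adjusted p from limma was 0.784.

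The Gabra5 transcripts were listed unevenly across mice. ENSMUST00000206734 was listed at 7.66, 9.83 and 0 FPKM in controls, against 0, 9.06 and 0 FPKM after RSD, and a listed 0 can be a failed estimate. ENSMUST00000206382 was measured at 3.604, 4.08 and 7.92 FPKM in controls, against 8.50, 6.36 and 8.99 FPKM after RSD. Control replicate 3 and RSD replicates 1 and 3 therefore held the whole Gabra5 level in a single transcript. Gabra2 varied in its main form, ENSMUST00000197284, which was measured at 4.45, 8.01 and 12.3 FPKM in controls, against 9.53, 2.30 and 11.4 FPKM after RSD. The main forms of Gabra4, Gabrb1 and Gabrd overlapped between the groups. ENSMUST00000031121 of Gabra4 ran from 26.1 to 29.8 FPKM over the 6 mice, ENSMUST00000031122 of Gabrb1 from 16.9 to 21.7 FPKM and ENSMUST00000030925 of Gabrd from 12.4 to 20.5 FPKM.

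As a share of its gene, 0 of the 18 transcripts had an adjusted p under 0.05 with limma, against 0.143% of the 23840 shares tested. A minor Gabrb2 form, ENSMUST00000192403, was the 1 share that met the threshold of the paper, against 3.89% of all shares, and the 1 with an unadjusted p under 0.05, against 5.78% of all. It was measured at 0.602, 1.09 and 1.27 FPKM in controls, against 0.397, 0.671 and 0.298 FPKM after RSD, a level near the filter of 0.5 FPKM. Its log2 share was lower by 1.11 in RSD mice (standard error 0.442), with an adjusted p of 0.852 from limma, and it no longer met that threshold at other pseudocounts or filters, with the replicate number as a block, or when control replicate 2 or 1 of RSD replicates 1 and 3 was left out.

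**Figure D3:**
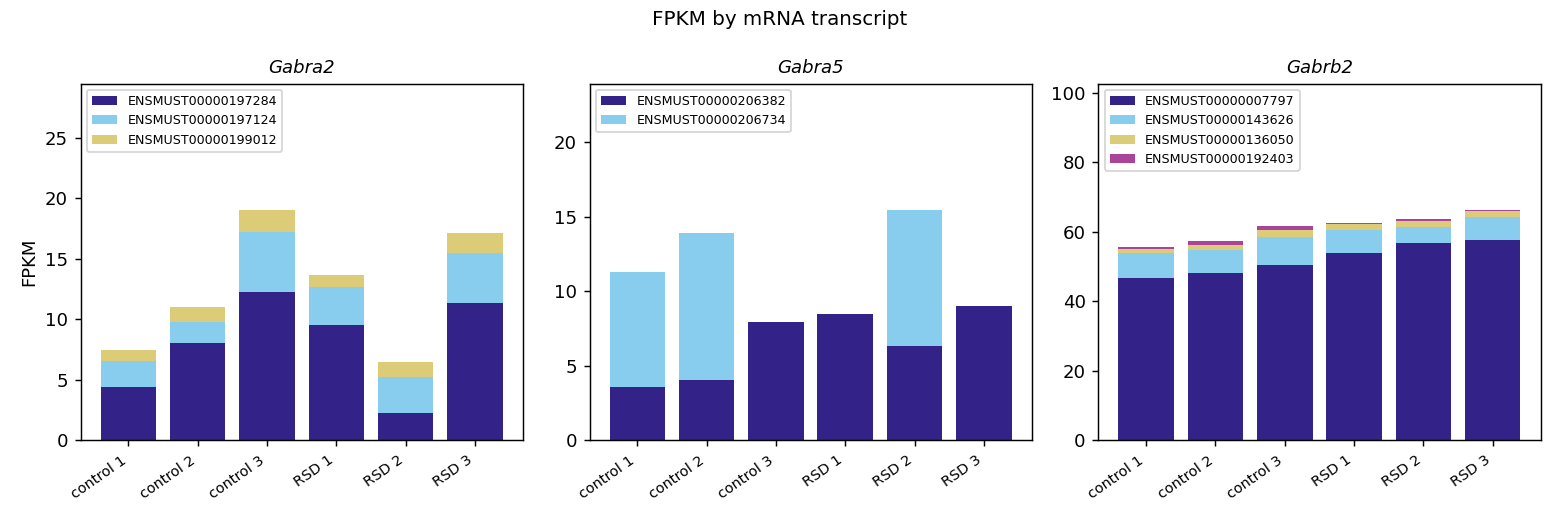
FPKM per mRNA transcript, stacked by mouse, for Gabra2, Gabra5 and Gabrb2. The upper Gabra5 transcript is listed at 0 in control replicate 3 and in RSD replicates 1 and 3, and the main Gabrb2 transcript runs from 46.7 to 50.3 FPKM in control mice and from 53.7 to 57.7 FPKM in RSD mice.

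Much of the RNA assembled at the Gabra3 locus was listed as lncRNA. The transcript MERGE.48241.2 runs on the minus strand of chromosome X from 72432815 to 72656186 and so has the same start as the main Gabra3 mRNA. It was measured at 40.3, 39.6 and 41.1 FPKM in controls, against 41.3, 43.3 and 43.1 FPKM after RSD, above every Gabra3 mRNA value. Every RSD mouse was above every control mouse, by a small step. The means were 40.3 ± 0.788 and 42.6 ± 1.13 FPKM (SD, n = 3 each), with a log2 fold change of 0.08 (standard error 0.132) and an adjusted p of 0.966 from limma. The sum of mRNA and lncRNA over the Gabra3 locus was 47.9, 47.3 and 47.7 FPKM in the control mice and 46.8, 48.4 and 48.6 FPKM in the RSD mice. For this sum the groups overlapped, and the log2 fold change was 0.01 (standard error 0.0824, adjusted p of 0.977 from limma).

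The percentage of the Gabra3 locus listed as mRNA was 15.8, 16.3 and 13.8% in the control mice and 11.8, 10.5 and 11.4% in the RSD mice. It was lower in every RSD mouse than in every control mouse, which held for 4.78% of the 4160 tested genes with both mRNA and lncRNA transcripts in the locus. The means were 15.3 ± 1.33% and 11.2 ± 0.651% (SD, n = 3 each), with an exact two-sided permutation p of 0.1. Over the 6 mice the percentage was 13.3% for Gabra3 against a median of 63.8% over these genes, of which 6.78% had a lower one. Over the whole libraries the percentage of FPKM listed as mRNA was 56.9 to 61.1% in control mice and 60.9 to 63.9% in RSD mice, and so did not follow the direction at Gabra3.

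**Figure D4:**
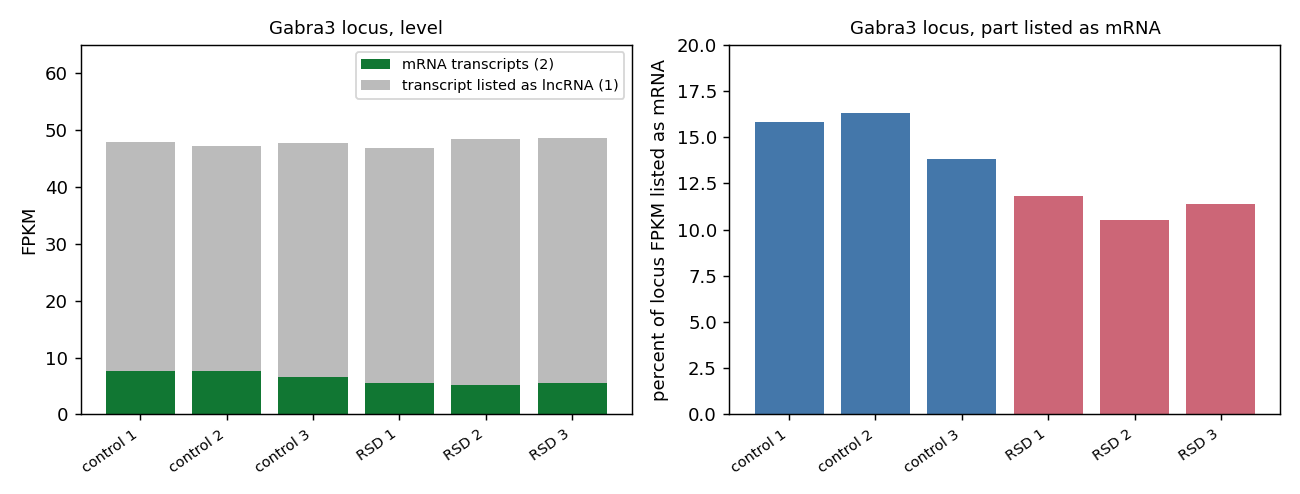
Left, FPKM of the Gabra3 locus by mouse, stacked from its 2 mRNA transcripts (green) and the transcript listed as lncRNA (grey); right, the percentage of that sum listed as mRNA in control (blue) and RSD (red) mice. The sums stay between 46.8 and 48.6 FPKM, while the percentage is 13.8 to 16.3% in control mice and 10.5 to 11.8% in RSD mice.

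Transcripts listed as lncRNA were also in the loci of Gabra2 and Gabrb1, which made 3 in all. With limma 0 of the 3 had an adjusted p under 0.05, against 0.102% of the 23640 lncRNA transcripts tested, 0 met the threshold of the paper, against 2.43%, and 0 had an unadjusted p under 0.05, against 5.28%. The Gabra3 transcript was the 1 of the 3 with every RSD mouse above the controls, against 3.49% of all. NONMMUT052647.2, on the Gabra2 strand near the end of that gene from 70958563 to 70960393, was measured at 13.7, 22.6 and 20.8 FPKM in controls, against 15.2, 14.1 and 17.4 FPKM after RSD. Its groups overlapped, with an adjusted p of 0.938 from limma. In the Gabra2 locus 31.4 to 49.6% of the FPKM was listed as mRNA. In the Gabrb1 locus 84.8 to 88.1% was, and all transcripts of Gabra4, Gabra5, Gabrb2 and Gabrd were listed as mRNA.

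Subunit composition, the percentage of each member in the summed FPKM of the 7, is a description and has no test, since the members set the denominator. The sum was 153.8, 160.3 and 171.8 FPKM in the control mice and 164.0, 162.2 and 171.0 FPKM in the RSD mice, and overlapped. Gabrb2 made up 36.2, 35.7 and 35.9% in the control mice and 38.1, 39.3 and 38.7% in the RSD mice, a difference of 2.76 percentage points with no overlap. Gabra4 made up 20.3, 19.8 and 20.3% in the control mice and 19.1, 19.1 and 19.5% in the RSD mice, lower in every RSD mouse. Gabra3 made up 4.92, 4.81 and 3.83% in the control mice and 3.37, 3.15 and 3.24% in the RSD mice, also lower in every RSD mouse. In RSD mice the part of Gabrb2 was thus larger, and those of Gabra4 and Gabra3 smaller, by a few points or less. Gabrb1 made up 13.1 ± 1.25% and 12.6 ± 0.203%, Gabrd 11.8 ± 2.53% and 12.1 ± 1.15%, Gabra2 7.61 ± 3.16% and 7.45 ± 3.12%, and Gabra5 6.87 ± 2.07% and 6.65 ± 2.48% in control and RSD mice (SD, n = 3 each). All 12 subunit genes of the table were also used as the denominator, of which the 7 made up 45.6 to 60.6%. The difference was then 0.622 points for Gabrb2, -0.886 points for Gabra4 and -0.738 points for Gabra3. With this denominator the groups overlapped for Gabrb2 and Gabra4 and did not overlap for Gabra3. With locus sums of the 7 the difference was -0.126 points for Gabra3 and -0.496 points for Gabra4, and the groups overlapped for both. For Gabrb2 the locus sums gave 2.32 points with no overlap.

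**Figure D5:**
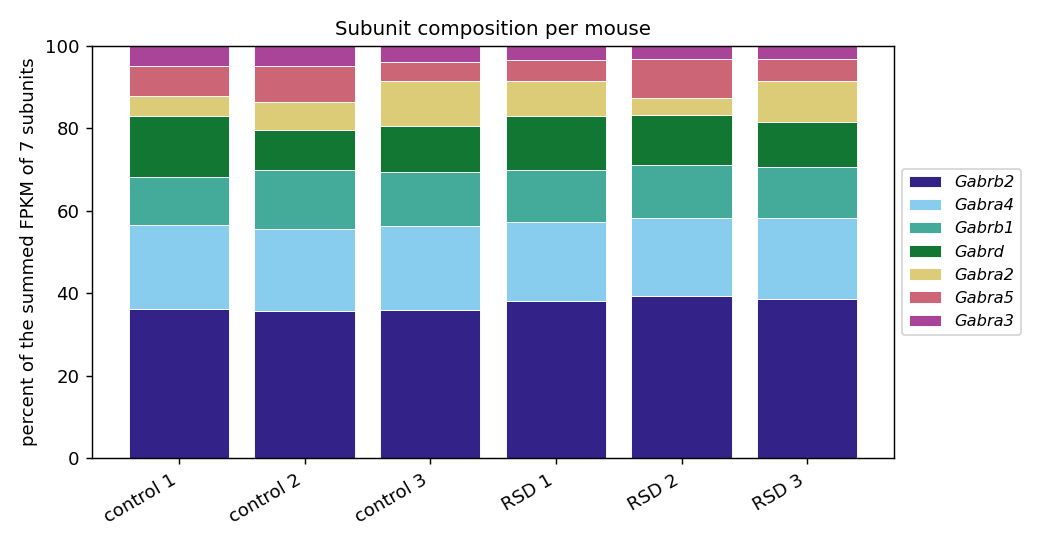
Percentage of each of the 7 subunits in their summed FPKM, one bar per mouse. The Gabrb2 part at the bottom is 35.7 to 36.2% in control mice and 38.1 to 39.3% in RSD mice, and the Gabra2 and Gabra5 parts vary from mouse to mouse in both groups.

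Ratios between subunits within a library do not depend on its scaling, and 3 were compared. The log2 ratio of Gabrd to Gabra4, partners in receptors outside synapses, was -0.48, -1.03 and -0.89 in the control mice and -0.54, -0.64 and -0.84 in the RSD mice. In every mouse Gabrd was the lower of the pair. The groups differed by 0.12, with an exact two-sided permutation p of 0.6, or 0.9 adjusted over the 3 ratios. The log2 ratio of Gabrb1 to Gabrb2 was -1.61, -1.32 and -1.44 in the control mice and -1.59, -1.62 and -1.64 in the RSD mice. Its groups overlapped through control replicate 1 and differed by -0.16, with an exact permutation p of 0.2, or 0.6 adjusted. The log2 ratio of Gabra5 to Gabra2 was 0.59, 0.33 and -1.26 in the control mice and -0.69, 1.25 and -0.93 in the RSD mice. The ratio was below 0 in control replicate 3 and RSD replicates 1 and 3. In these mice ENSMUST00000206734 of Gabra5 was listed at 0. The same mice held the 3 highest Gabra2 values, 19.0, 13.7 and 17.1 FPKM. The part of the zeros and of the Gabra2 values in the ratio was not tested. The groups differed by -0.01, with an exact permutation p of 1.

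The other genes of GABA signalling were taken as lists by role, of which 46 of 58 genes were tested. With limma 0 of the 46 had an adjusted p under 0.05 and 3 met the threshold of the paper, against 2.42% of all genes, as given above. By sign, 28 were higher and 18 lower in RSD mice, and their median log2 fold change was 0.08 against 0.03 over all genes. The other subunits counted 5 tested of 12, with log2 fold changes from -0.15 to 0.49 and none at either threshold. Among them were none with an unadjusted p under 0.05, and over the 46 genes there were 4, beside 8.94% of all genes.

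The 3 genes at the threshold of the paper have different roles. Slc32a1, the transporter that fills synaptic vesicles with GABA, was measured at 7.72, 3.51 and 4.36 FPKM in controls, against 16.5, 13.2 and 7.70 FPKM after RSD, a log2 fold change of 1.26 with an adjusted p of 0.535 from limma. Its groups overlapped at control replicate 1 and RSD replicate 3, and it is also one of the 6 interneuron markers, whose sums overlapped. Shisa7, an accessory protein of GABA-A receptors, was measured at 6.57, 1.10 and 1.92 FPKM in controls, against 14.3, 6.12 and 6.94 FPKM after RSD, a log2 fold change of 1.76 with an adjusted p of 0.553 from limma. Hap1, an adaptor for the transport of these receptors, was measured at 8.69, 8.85 and 9.28 FPKM in controls, against 1.41, 6.16 and 3.87 FPKM after RSD. Every RSD mouse was below the controls for Hap1, with a log2 fold change of -1.43 and an adjusted p of 0.546 from limma. The count of 3 became 0 when control replicate 2 or RSD replicate 1 was left out, and 1 when this was control replicate 3 or RSD replicate 2. By role, the median log2 fold change was 0.06 over 20 genes of receptor assembly, trafficking and anchoring, 0.11 over 9 genes of GABA synthesis, release, uptake and breakdown, 0.11 over 9 genes of the chloride gradient and 0.37 over 3 tested genes of neurosteroid synthesis. Those 3, of 8 listed, had low levels, from 0 to 1.58 FPKM over the 6 mice, and the groups overlapped for each.

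As a description of pattern, each member was matched with the gene most like it over the 6 mice by Pearson correlation of log2 values, among 6498 genes with at least 5 FPKM on average. With 6 mice many genes reach a high value. Gabrd was most like Dcaf4 (r = 0.996), and 68 genes passed 0.95 with it. For Gabra3 the gene was Morc3 (r = 0.984, 27 genes past 0.95), for Gabrb2 Rab39b (r = 0.986, 18 genes) and for Gabrb1 Zfp933 (r = 0.993, 25 genes). The variable alpha subunits had fewer such genes, with N4bp2l1 for Gabra2 (r = 0.982, 6 genes) and Tpm3 for Gabra5 (r = 0.980, 2 genes), as did Gabra4 with Zmym4 (r = 0.974, 6 genes).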

How the data were processed

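Total RNA of the PFC had been depleted of ribosomal RNA and sequenced with strand kept. The authors assembled transcripts and deposited FPKM per transcript and mouse from the Cufflinks suite, which divides reads among isoforms. The submitters' processing notes name Bowtie 0.12.2 and mm9, but all 7 members overlapped their RefSeq genes on GRCm38, and positions are as deposited. The deposited columns of the authors' own fold changes and p-values were not used. FPKM was summed by symbol over mRNA transcripts, taken as log2(FPKM + 0.1), which understates changes of low genes, and tested over all features with at least 0.5 FPKM in 3 of 6 mice with limma 3.58.1 in R 4.3.3 (moderated, with a trend over the mean), with Benjamini-Hochberg adjustment. Only relative depths could be read from the values. The limma p-values rest on the spread between these 3 mice a group, moderated toward the spread of genes at a similar level.

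Members, lists and tests were chosen with earlier results of these data known. The genes named are the members, their most abundant transcripts and those at a threshold or apart between groups, genes of the lists at a threshold, and the closest match of each member. The other subunits are given as a group. The procedure was tested on simulated data. Alternatives were pseudocounts of 0.01, 1 and 0.001, no filter or one of 1 FPKM, median scaling, no trend, quantile normalization, a lowess fit over locus span, the replicate number as a block, locus sums, the most abundant transcript, all subunits as denominator, both kinds of transcript together, and each mouse left out.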

Additional observations from a re-analysis of the deposited data

How the results depend on the processing

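Of 374 values recomputed under the alternatives, 22 moved, 18 reversed and 334 did neither. Among the 334 were 12 untested composition values, of Gabra2, Gabra5, Gabrb1 and Gabrd, that changed sign by less than the spread between mice. No member gene, transcript, share or locus lncRNA and no listed GABA gene reached an adjusted p under 0.05 with limma under any alternative run. Same-numbered mice did not pair, since their deviations correlated at 0.129, -0.0945 and 0.0961. With the replicate block the adjusted p from limma was 0.557 for Gabra3 and 0.723 for Gabrb2, and the block changed no call but that of the isoform share, counted 0. That count of shares at the threshold of the paper, 1 in the main analysis, was 0 at pseudocounts of 0.01, 1 and 0.001, with no filter and with a filter of 1 FPKM, and 0 to 1 when 1 mouse was left out. Leaving out 1 mouse gave 0 to 2 member transcripts and 0 to 2 other GABA genes at that threshold. It also gave log2 fold changes of -0.33 to 0.39 for Gabra2, -0.0663 to 0.0165 for Gabra4, -0.30 to 0.16 for Gabra5, -0.13 to 0.0368 for Gabrb1 and -0.0437 to 0.22 for Gabrd, whose direction turned, and of -0.50 to -0.38 for Gabra3 and 0.11 to 0.18 for Gabrb2, whose direction did not. The Gabra3 adjusted p from limma then ranged from 0.192 to 0.885, and over the other alternatives from 0.353 to 0.977. Summing over the assembled locus turned Gabra3 to 0.00938 because the transcript listed as lncRNA was added, and quantile normalization turned Gabrd to -0.0024. Gabrb2 was 0.0608 after median scaling and 0.0466 after quantile normalization. The log2 ratio of Gabra5 to Gabra2 turned to 0.96 with the most abundant transcripts and to 0.13 with locus sums, and ranged from -0.69 to 0.40 when 1 mouse was left out. The cause of these turns was not tested, apart from the locus sum. Scaling shifted the median over all genes from 0.03 to between -0.06 and -0.004 on the log2 scale. With no read counts, the precision of low isoforms is unknown.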

Other observations

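In 2 of the 9 chloride gradient genes every RSD mouse was above every control mouse, beside 9.39% of all genes, and neither reached a threshold. Wnk1, a kinase that controls the chloride transporters on which GABA-A currents depend, was measured at 23.7, 19.1 and 26.0 FPKM in controls, against 29.6, 28.7 and 29.3 FPKM after RSD, a log2 fold change of 0.36 with an adjusted p of 0.553 from limma. Oxsr1, a kinase that acts on such transporters, was measured at 1.61, 1.54 and 1.62 FPKM in controls, against 1.66, 1.67 and 1.84 FPKM after RSD, a log2 fold change of 0.11 with an adjusted p of 0.825 from limma. Both were named after their values were seen.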
